A study of Homo sapiens with 4 samples.

Results

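The transcripts described here encode 10 proteins that bind microtubules or take their tubulin subunits away: the structural microtubule-associated proteins (MAPs) MAP4, MAPT (tau), MAP1A, MAP1B, MAP2 and MAP7, the plus-end binder MAPRE1 (EB1), and the stathmins STMN1, STMN2 and STMN3. They were chosen by gene name, as genes linked to the response to taxanes, and all 10 were found among the 26485 gene names of the series. SW1736 and 8505C are established human cell lines from anaplastic thyroid cancer (ATC), and each was sequenced as wild-type (wt) cells and as paclitaxel-resistant (PTX) cells, with 1 mRNA library in each of the 4 groups. SW1736 wt and 8505C wt were grown without the drug. SW1736-PTX and 8505C-PTX were selected for 6 months in paclitaxel, starting at 1 nM and ending at 1.5 µM, the dose at which they were kept, so that resistance and the continued presence of the drug cannot be told apart. The number of selections per line and whether a resistant line is clonal are not given in the sources used here.

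Microtubules are hollow polymers of alpha- and beta-tubulin that grow and shrink at their plus ends and build the mitotic spindle. Paclitaxel binds beta-tubulin inside the polymer and stabilizes it. MAP4, MAP2 and tau share tubulin-binding repeats and lie along the outside of the polymer, which they stabilize; MAP4 is the member found in most tissues, whereas MAP2 and tau are best known from neurons. MAP1A and MAP1B are large, mainly neuronal MAPs, MAP7 recruits the motor kinesin-1, and EB1 rides on growing plus ends and brings other proteins there. Stathmins act in the opposite sense: they hold free tubulin dimers and promote the shrinking of microtubules. STMN1 is abundant in dividing cells and is switched off by phosphorylation in mitosis, whereas STMN2 and STMN3 are mainly neuronal.

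Levels were taken from the deposited FPKM, which scales aligned reads to transcript length and library depth, so that levels of different genes can be set beside each other. Changes are log2 ratios after 0.1 FPKM was added to both values. A gene was compared when either library of the pair held more than 0.5 FPKM, and called when its log2 fold change was above 1.5 or below -1.5; "rose" and "fell" are used here only for called genes. With 1 library per group no difference could be set against the spread between cultures and no p-value was computed. Intervals given with a ratio are 95% Clopper-Pearson intervals on approximate read numbers and cover counting error only. The aligned bases behind a library, worked out by dividing coverage by FPKM, came to between 3.27 and 4.34 Gb, and were more in each PTX library than in its own wt library. The number of gene names listed at 0 went the other way, from 10379 in SW1736 wt to 8485 in SW1736-PTX and from 10241 in 8505C wt to 8869 in 8505C-PTX.

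The library labelled SW1736-PTX went against its parental line in several lineage markers. PAX8, a thyroid transcription factor, was at 38.2 and 0.206 FPKM in the wt and PTX libraries of SW1736, and at 0.123 and 0.146 in those of 8505C. NKX2-1, another thyroid transcription factor, was listed at 0 in SW1736 wt, while SW1736-PTX held 36.3 FPKM, 8505C wt 30.5 and 8505C-PTX 39.0. KRT19, an epithelial keratin, went from 266 to 0.535 FPKM in the SW1736 pair and was listed at 0 in 8505C wt and 8505C-PTX. Over 14692 genes, Pearson's r of SW1736-PTX was 0.767 with SW1736 wt, 0.873 with 8505C wt and 0.933 with 8505C-PTX, the highest of all pairs, and that of 8505C-PTX with 8505C wt was 0.877; these describe likeness across genes, which are not replicates. Whether SW1736-PTX descends from SW1736 was not tested, so "both lines" below means the pairs as labelled. The members, the gene lists and most of the genes named from them are also compared between SW1736-PTX and 8505C wt. Of the markers of thyroid function, TSHR and SLC5A5 were listed at 0 in all libraries, and TG was at most 0.00586 FPKM. The epithelial markers KRT8 and KRT18 were at 257 FPKM or more in all libraries, and the mesenchymal marker VIM at 1321 or more; The epithelial adhesion genes EPCAM and CDH1 were at most 0.0806 and 0.0277 FPKM, so the epithelial markers did not go together. KRT18 rose in SW1736 (log2 fold change 2.49; 1.49 without a call against 8505C wt). FN1, which encodes fibronectin, fell in SW1736 (-3.45; 0.17 against 8505C wt) and rose in 8505C (1.56).

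The members fell into an abundant and a scarce group. STMN1, STMN3, MAPRE1 and MAP4 were between 60.2 and 285 FPKM in every library, MAP1B was between 12.2 and 20.9, and MAPT, MAP2, MAP7 and MAP1A never exceeded 7.06 FPKM. STMN2 was listed at 0 in all 4 libraries; at these depths, 3 reads on its 1903-base transcript would give between 0.0272 and 0.0362 FPKM. In SW1736-PTX against SW1736 wt, 7 members were compared and 1 was called, MAP2, or 14.3%, while 25.9% of all 14202 genes compared were called, 15.7% higher and 10.2% lower. In 8505C-PTX against 8505C wt, 8 members were compared and 3 were called, MAP2, MAPT and MAP7, or 37.5%, beside 20.9% of all 13794 genes, 15.0% higher and 5.89% lower. All of these calls were increases. Against 8505C wt, SW1736-PTX had 2 calls among 7 members compared, MAP2 and MAPT, beside 20.4% of 13824 genes, 15.1% higher and 5.23% lower. In each of these comparisons the called members passed the limit of 0.5 FPKM only through the PTX library. Their calls could therefore only be increases, and 0 members were called where both libraries had to pass. With so few members these shares are descriptions. The median log2 fold change of the members compared was 0.24 in SW1736 and 0.54 in 8505C, where the median over all genes compared was 0.01 and 0.11. In bulk RNA, a change in the share of cells that express a gene and a change in its RNA per cell cannot be told apart.

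**Figure D1:**
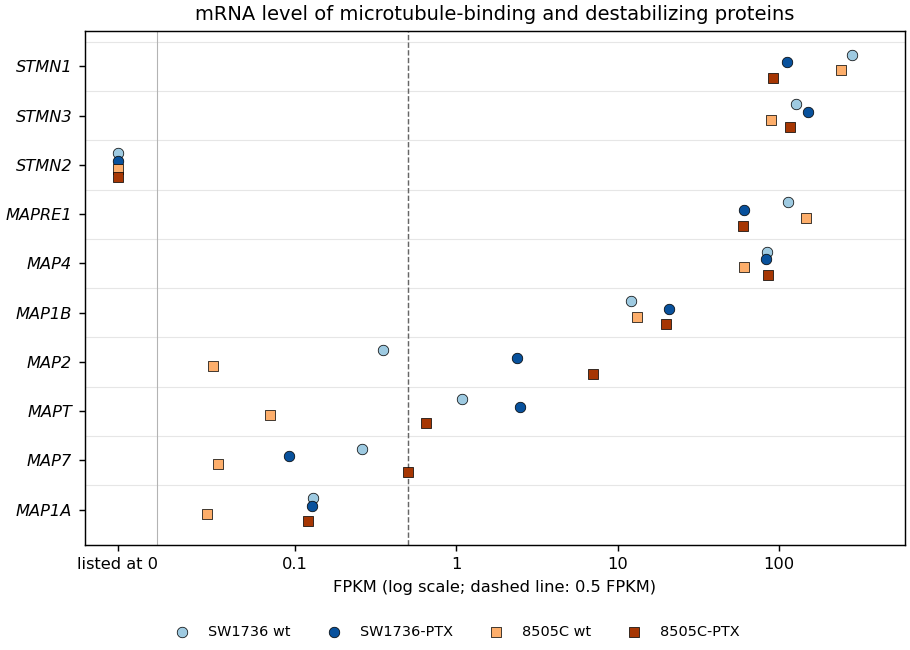
FPKM of each of the 10 members (horizontal log axis) in the 4 libraries, 1 point per library; the dashed line marks 0.5 FPKM, and points at the left edge are listed at 0. STMN1 and MAPRE1 are lower in both PTX libraries than in both wt libraries, MAP2 is higher in both, and STMN2 is listed at 0 throughout.

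STMN1, the stathmin of dividing cells, was the most abundant member in both wt libraries and was lower in both resistant lines. In the tables, which use hg38, it lies on chromosome 1 from 25884186 to 25906877, minus strand. The wt and PTX libraries of SW1736 held 285 and 112 FPKM, and those of 8505C held 244 and 91.9. Both PTX libraries were thus below both wt libraries, and the order did not depend on which wt library was used. The level in SW1736-PTX was 0.393 times that of SW1736 wt (interval 0.384 to 0.403), and the level in 8505C-PTX was 0.377 times that of 8505C wt (0.366 to 0.388). These are log2 fold changes of -1.35 and -1.41, short of the limit of -1.5, so STMN1 was not called in either line; against 8505C wt, SW1736-PTX had -1.12. Of all genes compared, 12.1% had a lower log2 fold change than STMN1 in SW1736 and 6.85% in 8505C.

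STMN3, a stathmin relative that binds tubulin in the same way, did not follow STMN1. It lies on chromosome 20 from 63639705 to 63653610, minus strand. Its level was 128 FPKM in wt and 151 in PTX cells of SW1736, and 89.3 in wt and 117 in PTX cells of 8505C. The log2 fold changes were 0.24 and 0.39, and 0.76 for SW1736-PTX against 8505C wt. As a result the order of the stathmins turned over: the ratio of STMN1 to STMN3 was 2.22 in SW1736 wt and 2.73 in 8505C wt, but 0.741 in SW1736-PTX and 0.788 in 8505C-PTX. The sum of the stathmin family (STMN1 to STMN4, with STMN4 listed at 0 in all libraries as STMN2 was) was 413 and 333 FPKM in the wt libraries of SW1736 and 8505C, and 263 and 209 in their PTX libraries.

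MAPRE1, which encodes EB1, showed the same direction as STMN1 (chromosome 20 from 32819893 to 32850405, plus strand). SW1736 went from 114 to 61.0 FPKM between wt and PTX, and 8505C from 148 to 60.2, so that the PTX libraries were nearly level and below both wt libraries. The ratio of PTX to wt was 0.534 in SW1736 (interval 0.520 to 0.548) and 0.408 in 8505C (0.398 to 0.419), and neither log2 fold change, -0.90 and -1.29, reached the limit. Against 8505C wt the log2 fold change of SW1736-PTX was -1.27.

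The relatives of EB1 moved the other way. MAPRE2, which encodes EB2, was at 6.32 and 12.3 FPKM in the wt libraries of SW1736 and 8505C and at 24.5 and 22.4 in their PTX libraries, and rose in SW1736 (log2 fold change 1.94), without a call in 8505C (0.86) or for SW1736-PTX against 8505C wt (0.99). MAPRE3, which encodes EB3, had 0.0950 and 2.81 FPKM in the wt libraries and 9.47 and 9.18 in the PTX libraries, and rose in both lines (5.62 and 1.67) and for SW1736-PTX against 8505C wt (1.72). EB1 therefore made up 94.7% of the summed FPKM of the 3 EB genes in SW1736 wt and 90.7% in 8505C wt, against 64.2% in SW1736-PTX and 65.6% in 8505C-PTX. The sum itself was 121 and 163 FPKM in the wt libraries and 95.0 and 91.8 in the PTX libraries, in the order SW1736 and 8505C.

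**Figure D2:**
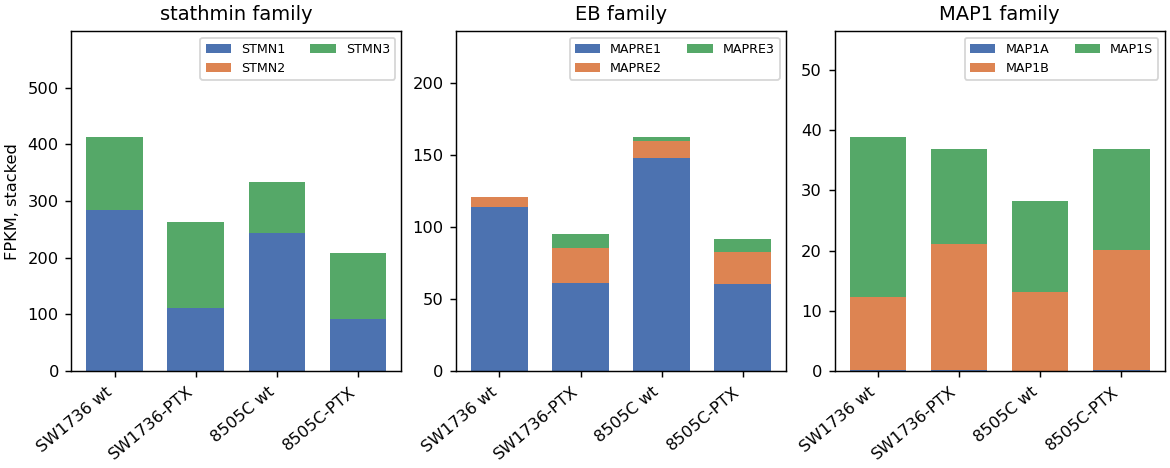
Stacked FPKM (vertical axis, from 0) of the stathmin, EB and MAP1 families in the 4 libraries; each colour is a gene, and STMN4, listed at 0, is left out. In both PTX libraries STMN1 is the smaller part of the stathmin bar, and MAPRE1 makes up 64.2% (SW1736-PTX) and 65.6% (8505C-PTX) of the EB bar.

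The median log2 fold change of the genes around STMN1 and of those around MAPRE1 was above 0 in both lines. Within 0.5 Mb of STMN1, 16 other genes were compared in each line, with a median log2 fold change of 0.51 in SW1736 and 0.41 in 8505C, and 12 of the 16 were above 0 in each. Of the 5 genes compared near MAPRE1, 3 were above 0 in SW1736 and 4 in 8505C, with medians of 0.26 and 0.34. No listed gene overlapped MAPRE1, and the only gene overlapping STMN1, MIR3917, was at most 0.117 FPKM. How reads shared with near-identical gene copies were assigned is not given in the sources used here, which leaves the levels of STMN1 and MAPRE1 uncertain to that extent.

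STMN1 and MAPRE1 were lower together with genes of cell division. All 10 proliferation genes of a fixed list were below 0 in both lines. Their log2 fold changes were between -2.46 and -0.34 in SW1736 and between -2.29 and -1.07 in 8505C. In the same order 3 and 8 of them fell, beside 10.2% and 5.89% of all genes compared. MKI67, the gene of the Ki-67 antigen, fell by 2.46 on the log2 scale in SW1736, with 19.9 FPKM left in SW1736-PTX and 18.0 in 8505C-PTX, and PCNA, the sliding clamp of DNA replication, fell by 1.89 and 1.69. The summed FPKM of the list was 1341 and 1292 in the wt libraries of SW1736 and 8505C, and 496 and 423 in their PTX libraries. Against 8505C wt, SW1736-PTX was also below 0 for all 10, with a median of -1.45. There 5 of them fell, beside 5.23% of all genes compared. MKI67 was among them (-1.65), while PCNA was not called (-1.31). The part of proliferation in the levels of STMN1 and MAPRE1 was not tested.

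Promoter sequences of the members were searched for elements known from cell-cycle genes: the E2F site, the CHR element (cell cycle genes homology region) and the CCAAT box. Windows from 250 bases before to 30 after the start site were taken from RefSeq on GRCh38.p14, which held at least 1 window for 8 of the 10 members (none for MAPT and STMN2). Both strands were searched for TTTGGCGC, TTTCGCGC, TTTCCCGC and TTTGCCGC (E2F), for TTTGAA and TTCGAA (CHR) and for CCAAT. Of all 34792 windows, 3.13% held an E2F match, 15.7% a CHR match and 33.7% a CCAAT match. The windows of STMN1 (chr1:25906390-25906669, minus strand), MAPRE1 (chr20:32819704-32819983, plus strand) and STMN3 (chr20:63652737-63653016, minus strand) are printed because STMN1 and MAPRE1 were lower in both resistant lines while STMN3 was not; capitals mark matches.
STMN1: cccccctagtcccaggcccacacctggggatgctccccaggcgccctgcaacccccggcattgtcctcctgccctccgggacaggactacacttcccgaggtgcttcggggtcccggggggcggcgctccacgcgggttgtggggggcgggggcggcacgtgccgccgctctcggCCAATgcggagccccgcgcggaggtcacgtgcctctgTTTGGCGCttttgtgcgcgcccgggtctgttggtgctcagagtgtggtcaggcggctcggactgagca
MAPRE1: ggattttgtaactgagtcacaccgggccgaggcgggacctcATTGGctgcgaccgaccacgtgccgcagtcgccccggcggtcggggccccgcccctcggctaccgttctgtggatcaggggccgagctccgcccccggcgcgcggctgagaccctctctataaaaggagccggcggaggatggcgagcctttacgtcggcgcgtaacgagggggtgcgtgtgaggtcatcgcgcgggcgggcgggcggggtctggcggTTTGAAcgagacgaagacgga
STMN3: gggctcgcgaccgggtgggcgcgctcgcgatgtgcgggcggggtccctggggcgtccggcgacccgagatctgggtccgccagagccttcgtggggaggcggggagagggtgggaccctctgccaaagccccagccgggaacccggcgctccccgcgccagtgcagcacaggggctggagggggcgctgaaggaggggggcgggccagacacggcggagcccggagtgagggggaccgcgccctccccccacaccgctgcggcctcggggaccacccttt

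The STMN1 window held the E2F match TTTGGCGC from -38 to -31 and a CCAAT box from -75 to -71, counted from the start site. The MAPRE1 window held the CHR match TTTGAA from 10 to 15 bases after the start and CCAAT on the other strand from -209 to -205. The single window of STMN3 held none of these letters, and its start site lies downstream of the MANE start of the gene. A farther STMN1 window, upstream of the one printed, held another E2F match, TTTCCCGC. Matches were not limited to the members that were lower: MAP4, MAP1A, MAP2 and MAP7 each had a window with CCAAT, and MAP4, MAP1B and MAP7 each had at least 1 with CHR. An E2F match was found in the windows of STMN1 and of no other member searched. All 3 windows were rich in CpG, with 27, 39 and 31 sites in the order STMN1, MAPRE1 and STMN3, where the median window had 13. The 3 windows of MAP2 held between 4 and 9, but each lies at least 155285 bases from the MANE start of the gene. Such matches describe the letters only.

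MAP4, the most abundant structural MAP among the members, was nearly level across the libraries (chromosome 3 from 47850690 to 48089279, minus strand). SW1736 wt and SW1736-PTX held 84.4 and 82.9 FPKM, 8505C wt and 8505C-PTX held 60.5 and 85.1, and 8505C wt stood below the other libraries. Its log2 fold changes were -0.02 in SW1736, 0.49 in 8505C, and 0.45 for SW1736-PTX against 8505C wt. Beside the lower STMN1, the ratio of STMN1 to MAP4 was 3.38 in SW1736 wt and 4.03 in 8505C wt, and 1.35 and 1.08 in the PTX libraries.

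MAP2, which binds and bundles microtubules in dendrites, was the member that rose in both lines, where 9.78% of the 13304 genes compared in both were called the same way, 7.37% higher and 2.41% lower. The gene lies on chromosome 2 from 209424047 to 209734110, plus strand. The wt libraries had 0.351 (SW1736) and 0.0312 FPKM (8505C), and the PTX libraries 2.38 (SW1736) and 7.06 (8505C). Both PTX libraries were above both wt libraries, and both were also sequenced to more aligned bases and listed fewer genes at 0, whose part in the levels of scarce members was not tested. The level in SW1736-PTX was 6.79 times that in SW1736 wt (interval 5.76 to 8.01), and 8505C-PTX was 226 times 8505C wt (133 to 429), a ratio that rests on about 13 reads in 8505C wt and about 3648 in 8505C-PTX. The log2 fold changes were 2.46 and 5.77, and 4.24 for SW1736-PTX against 8505C wt. In 8505C, 0.225% of the genes compared had a higher log2 fold change, and 9.96% in SW1736. Between the PTX libraries MAP2 was called lower in SW1736-PTX than in 8505C-PTX (-1.53). The 2 other genes compared within 0.5 Mb of MAP2 had medians of -0.27 and -0.41.

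MAPT, the gene of tau, was higher in each PTX library than in its own wt library, but the lines differed from the start. SW1736 had 1.09 FPKM as wt and 2.47 as PTX cells, and 8505C had 0.0702 and 0.652, so that 8505C-PTX stayed below SW1736 wt. MAPT rose in 8505C (log2 fold change 2.14, ratio 9.29, interval 5.89 to 15.2) and was not called in SW1736 (ratio 2.27, interval 2.01 to 2.56). Against 8505C wt, SW1736-PTX was called with 3.92. Between the wt libraries MAPT was the only member called among 6 compared (2.81, higher in SW1736 wt), beside 17.6% of 13457 genes, 9.92% higher and 7.73% lower. The tables place MAPT on chromosome 17 from 45894382 to 46028333 (hg38), list it again on 2 alternate sequences at 0, and give the overlapping MAPT-AS1, MAPT-IT1 and STH at most 0.0612 FPKM. Of the 12 genes compared within 0.5 Mb, 11 were above 0 in each line, with medians of 0.76 and 0.48.

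MAP2 and MAPT together stayed a small part of their family. MAP4 made up 98.3% of the summed FPKM of MAP4, MAP2 and MAPT in SW1736 wt and 99.8% in 8505C wt, and 94.5% and 91.7% in the PTX libraries of the same lines.

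MAP1B, which is also expressed outside neurons, was at 12.2 and 13.2 FPKM in the wt libraries of SW1736 and 8505C and at 20.9 and 20.0 in their PTX libraries. The gene lies on chromosome 5 from 72107291 to 72209570, plus strand. Both PTX libraries were above both wt libraries, without a call: the log2 fold changes were 0.78 and 0.60, and 0.66 for SW1736-PTX against 8505C wt. Its relative MAP1A, on chromosome 15 from 43517608 to 43531620, plus strand, was between 0.0286 and 0.130 FPKM and below the limit for comparison in every pair. MAP1S, the short ubiquitous relative, stood at 26.6 and 15.7 FPKM in wt and PTX cells of SW1736 and at 15.0 and 16.8 in those of 8505C. MAP1B accordingly made up 31.3% and 46.7% of the summed FPKM of the MAP1 family in SW1736 wt and 8505C wt, and 56.9% and 54.2% in SW1736-PTX and 8505C-PTX.

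MAP7, also known as ensconsin, was scarce and split the lines (chromosome 6 from 136342281 to 136550819, minus strand). From wt to PTX it went from 0.261 to 0.0922 FPKM in SW1736 cells and from 0.0332 to 0.504 in 8505C cells. The rise in 8505C (log2 fold change 2.18) rests on a level just above the 0.5 FPKM limit and on about 5 and 102 reads, and in SW1736, at about 48 and 20 reads, MAP7 was below that limit. In the same libraries its abundant relative MAP7D1, which also works with kinesin-1, had 78.0 and 86.8 FPKM in the wt libraries of SW1736 and 8505C and 39.1 and 34.7 in the PTX libraries, without a call.

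**Figure D3:**
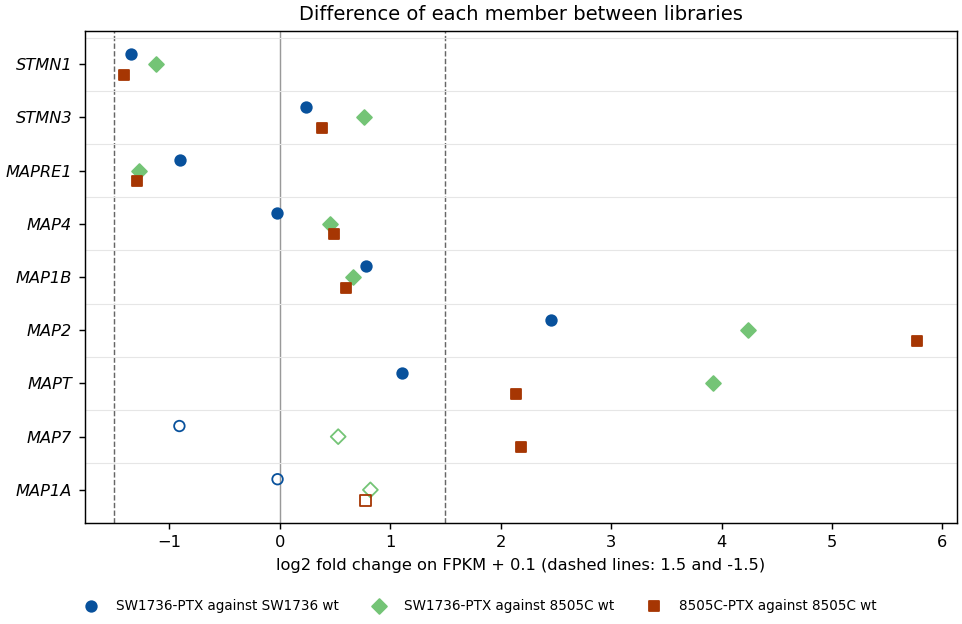
log2 fold change on FPKM + 0.1 (horizontal axis) of the 9 members with reads, for each PTX library against its own wt library and for SW1736-PTX against 8505C wt; open symbols are below 0.5 FPKM in both libraries of the pair and dashed lines are the limits of 1.5 and -1.5. MAP2 lies beyond 1.5 in all 3 comparisons, and STMN1 and MAPRE1 lie between -1.41 and -0.90.

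Between SW1736-PTX and 8505C-PTX, 8 members were compared and 3 were called, all of them scarce: MAPT (1.78) was higher in SW1736-PTX, and MAP2 (-1.53) and MAP7 (-1.65) were lower, beside 7.79% of 13986 genes, 4.09% higher and 3.7% lower. MAPRE1, MAP4 and MAP1B differed by a log2 fold change of 0.02, -0.04 and 0.07 there, and STMN1 and STMN3 by 0.29 and 0.37. Between the wt libraries, SW1736 against 8505C, the corresponding values were -0.37, 0.48, -0.11, 0.23 and 0.52, so STMN1 was no closer between the PTX libraries than between the wt libraries.

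Other microtubule regulators were described with fixed lists, whose counts stand beside the 25.9% of all genes called in SW1736, 20.9% in 8505C and 20.4% for SW1736-PTX against 8505C wt. Of 9 spindle MAPs, which organize the mitotic spindle, 8 were below 0 in each of these comparisons, with medians of -1.12, -1.49 and -1.42 in the same order; 2, 4 and 2 fell and 0 rose. TPX2, an activator of Aurora A, had 199 and 177 FPKM in the wt libraries of SW1736 and 8505C and fell to 63.6 and 57.3. CKAP2L fell to 7.19 FPKM in SW1736-PTX and 5.48 in 8505C-PTX, with 22.1 and 19.3 in the wt libraries. Against 8505C wt neither gene was called in SW1736-PTX (-1.47 for TPX2 and -1.42 for CKAP2L).

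Of the other structural MAPs and relatives, 21, 18 and 19 were compared in that order, of which 3, 2 and 3 rose and 4, 2 and 2 fell. Within that list MAP6, a MAP that protects microtubules from cold and drugs in neurons, rose in both lines (3.72 for SW1736-PTX against 8505C wt). It was at 1.39 FPKM in SW1736-PTX and 1.43 in 8505C-PTX, with 0.0188 and 0.0124 in the wt libraries. MAP6 thus passed the limit of 0.5 FPKM only through the PTX libraries, and its calls could only be increases. CKAP2, a spindle protein, fell by 2.12 and 1.73 on the log2 scale (-1.62 for SW1736-PTX against 8505C wt).

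The plus-end tracking proteins held 2 increases and 1 decrease among 20 compared in SW1736, 2 and 4 among 21 in 8505C, and 2 and 2 among 21 for SW1736-PTX against 8505C wt. Beside MAPRE3, CLIP4, a CAP-Gly domain protein, fell by 2.58 and 2.72 on the log2 scale (-1.56 for SW1736-PTX against 8505C wt). Of the severing enzymes, which cut microtubules, 7 were compared each time, with medians of -0.45, -0.63 and -0.74. FIGNL1 fell in SW1736 (-1.52), lay just inside the limit in 8505C, at 10.8 FPKM in wt and 3.74 in PTX cells, and was at -0.93 for SW1736-PTX against 8505C wt. The highest value in 8505C was that of FIGN (0.34).

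Of the tubulin-modifying enzymes, 4 rose and 1 fell among 16 compared in SW1736, 3 rose and 0 fell among 17 in 8505C, and 3 rose and 1 fell among 16 for SW1736-PTX against 8505C wt. VASH1, a carboxypeptidase that removes the last tyrosine of alpha-tubulin, rose in both lines (log2 fold changes 2.72 and 3.45; 3.06 against 8505C wt), with 7.35 and 9.67 FPKM in SW1736-PTX and 8505C-PTX. TTLL1, which adds glutamate chains to tubulin, rose by 2.70 and 3.95 to 6.45 and 6.06 FPKM (4.04 against 8505C wt). TTL, the ligase that restores the tyrosine, was at 22.8 and 10.3 FPKM in SW1736 and 20.0 and 8.37 in 8505C, without a call (-1.14 and -1.24; -0.94 against 8505C wt).

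Among 15 kinases of MAPs and stathmin, 1 rose and 1 fell in SW1736: MARK1, which SW1736 wt listed at 0 while SW1736-PTX had 0.673 FPKM, and CDK1 (-1.65). Neither was called against 8505C wt, where MARK1 had the opposite direction (-1.26, from 1.76 FPKM in 8505C wt) and CDK1 was at -1.34; the 1 call there was CDK5 (2.41). In 8505C 0 were called, and MARK4 (1.05) and CDK1 (-1.46) were the extremes.

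**Figure D4:**
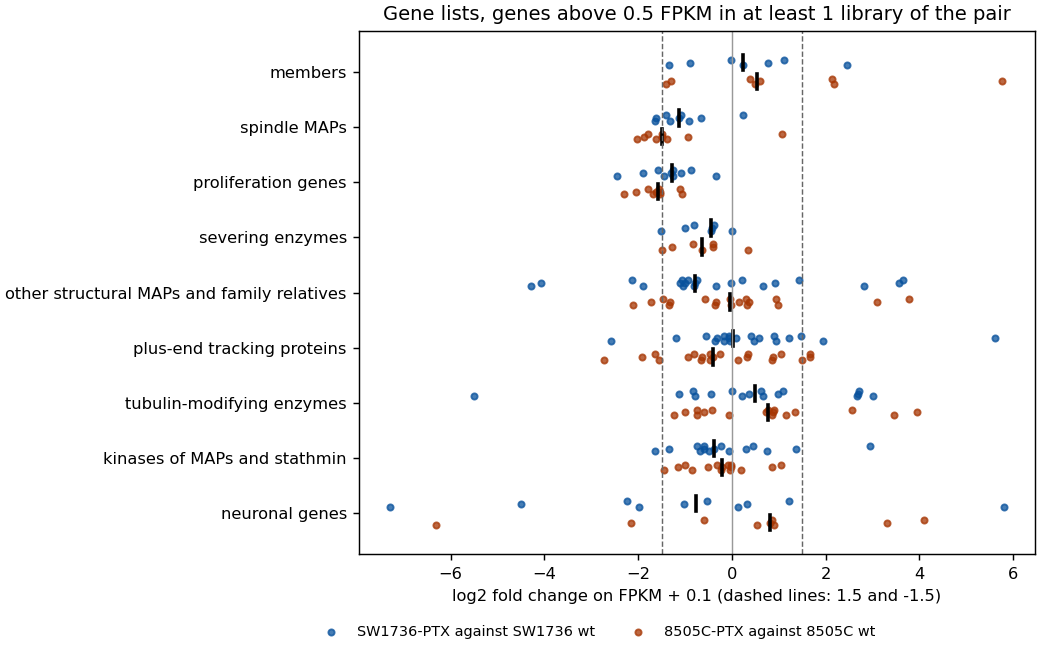
log2 fold change on FPKM + 0.1 (horizontal axis) of the genes of 9 lists in each line, 1 point per gene above 0.5 FPKM in at least 1 library of the pair; black bars are medians and dashed lines are 1.5 and -1.5. Spindle MAPs and proliferation genes lie mostly below 0 in both lines, with medians between -1.59 and -1.12, while the members spread to both sides.

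The direction of the neuronal genes depended on the line and on the wt library. Of 20 genes, 10 were compared in SW1736, of which 1 rose and 4 fell with a median of -0.78. In 8505C 9 were compared, 2 rose and 2 fell, and the median was 0.82. For SW1736-PTX against 8505C wt 10 were compared, 4 rose and 1 fell, and the median was 0.94. In the same order, 15.7%, 15.0% and 15.1% of all genes compared were called higher, and 10.2%, 5.89% and 5.23% lower. Among those that rose were NCAM1, a neural cell adhesion molecule, in 8505C (4.10), SCG2, a secretory granule protein, in 8505C (3.32; it fell in SW1736, -1.98), and SYT1, a synaptic vesicle protein, in SW1736 (5.80). Among those that fell were INA (-7.29) and SNAP25 (-4.51) in SW1736, and UCHL1 (-6.31) in 8505C. Against 8505C wt, SNAP25 rose in SW1736-PTX, UCHL1 fell, and INA was below the limit for comparison. The summed FPKM of the list was 249 and 160 in wt and PTX cells of SW1736 and 112 and 161 in those of 8505C. GPRIN1 fell in both lines (-2.23 and -2.16; -0.24 without a call against 8505C wt), and the neuronal genes NEFM and ELAVL4 were listed at 0 in all libraries. The part of other neuronal transcripts in the levels of MAP2 and MAPT was not tested. REST, the repressor of neuronal genes outside the nervous system, was at 6.36 and 7.24 FPKM in SW1736 and 8.63 and 8.71 in 8505C. Of the 9 genes listed as REST and its corepressors, 1 rose and 0 fell in each comparison, beside the shares of all genes given above. It was RCOR2 (3.14 in SW1736, 2.13 in 8505C and 2.54 against 8505C wt). RCOR2 had 0.0314 and 0.0988 FPKM in the wt libraries of SW1736 and 8505C and 1.06 and 0.772 in their PTX libraries. It passed 0.5 FPKM only through the PTX libraries, so it could only be called higher.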

How the data were processed

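mRNA was sequenced from 4 libraries, 1 each of SW1736 wt, SW1736-PTX, 8505C wt and 8505C-PTX, grouped by their titles. The authors ran bcl2fastq 2.20, used Cutadapt and ERNE to mask adapters and trim the 75 bp single-end reads, STAR to align them (hg38) and StringTie to quantify genes; annotation and the versions of STAR and StringTie are not given in the sources used here. The deposited tables hold read coverage (a signal not normalized for depth), FPKM and TPM, as deposited by the authors, and no counts. Whether quantification used strand is also not given.

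Here, FPKM rows of a gene name were summed, 0.1 FPKM was added, and genes above 0.5 FPKM in at least 1 library of a pair were called beyond a log2 fold change of 1.5; both limits come from the study's methods. Approximate reads were FPKM × MANE transcript length (GENCODE release 44) × depth. The rule was tested on simulated data, for genes above 1 FPKM in the wt library and with counting error only. Members called against their own wt library were below that level there, so the simulation did not cover them. Python 3.11.15, NumPy 2.4.6, pandas 2.3.3, SciPy 1.17.1 and matplotlib 3.10.9 were used.

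The members and lists were chosen with earlier results of these data known. All members were named, with listed genes called the same way in both lines, or else the extremes of a list. Family relatives (MAPRE2, MAP1S, MAP7D1), TTL, REST, KRT8, VIM, EPCAM, CDH1 and the promoter motifs were chosen after values were seen. So were NCAM1, SCG2, SYT1, INA, SNAP25, UCHL1, CDK5, TSHR, SLC5A5, TG, NEFM and ELAVL4. Alternatives changed the pseudocount, filter, unit, centring, threshold, repeated rows and the wt library of SW1736-PTX.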

Additional observations from a re-analysis of the deposited data

Results flagged for a closer look

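The log2 fold changes of 3 members had opposite signs in the lines, and these differences were not tested, since each rests on 1 library per group. MAP7 was at -0.91 in SW1736 and 2.18 in 8505C, a difference of 3.09, from fewer than 103 approximate reads in each library. MAP1A was at -0.02 and 0.78, a difference of 0.80, below 0.5 FPKM in every library. MAP4 was at -0.02 and 0.49, a difference of 0.52, and was lowest in 8505C wt. Against 8505C wt, SW1736-PTX was above 0 for all 3, with 0.53 for MAP7, 0.82 for MAP1A and 0.45 for MAP4.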

How the results depend on the processing

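The calls rest on scarce transcripts and moved with the settings. The number of members called in SW1736 was 1; it was 0 with a pseudocount of 1 FPKM or with more than 0.5 FPKM required in both libraries, 3 with a log2 limit of 1, and 2 with 8505C wt as reference. In 8505C it was 3; it was 1 with a pseudocount of 1 FPKM or a minimum of 1 FPKM, 0 with 0.5 FPKM in both libraries, and 5 with a limit of 1. The number called the same way in both lines was 1, and 0, 0 and 3 with the pseudocount of 1, 0.5 FPKM in both and the limit of 1. Between the wt libraries 1 became 0 with the pseudocount of 1 or 0.5 FPKM in both, and 2 without a filter. Between the PTX libraries 3 became 0 with the pseudocount of 1 and 0 with a limit of 2. SW1736-PTX against 8505C wt went from 2 to 0 with 0.5 FPKM in both and to 4 with a limit of 1. No called member changed sign. STMN1 in 8505C was at -1.41, and at -1.51 once values were centred on the median gene, which lay at 0.11 there; it was then called. The causes were not tested. No paired analysis was possible because the groups compared share fewer than 2 replicate numbers, with 1 library each. A fit with the 2 lines as replicates of resistance was not run. Without replicates, differences between cultures could not be estimated.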
